A study of Homo sapiens with 6 samples.

Results

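The genes described here are 56 genes of mitosis, the spindle and the kinetochore, followed in NALM6 cells treated with THZ1. They form a fixed list of symbols, and each was matched to the Ensembl identifier of the raw count table by its symbol. All 56 were found among the 57905 genes of that table, and all 56 passed the filter on low counts, as did 16622 genes in all. NALM6 is an established human leukemia line (B-ALL, of B-cell precursors). THZ1 covalently inhibits CDK7, a kinase that activates other cyclin-dependent kinases and phosphorylates RNA polymerase II. The RNA-SEQ libraries comprised 3 of DMSO-treated cells, DMSO being the solvent, and 3 of cells kept in 500 nM THZ1, each for 24 h. All libraries came from this 1 line, and THZ1 was used at 1 dose and 1 time. The methods describe data in general as coming from independent experiments, but neither they nor the labels say this of the RNA-SEQ libraries in particular. Where the libraries of one treatment shared a culture, the p-values measure only the spread between these libraries, which may be technical.

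Mitosis is driven by CDK1 bound to cyclin B, which WEE1 and PKMYT1 hold inactive by phosphorylation until CDC25 phosphatases release it. Condensin and topoisomerase II then compact the chromosomes, kinetochores attach them to the spindle, and the spindle checkpoint keeps CDC20 from activating the anaphase-promoting complex until every chromosome is attached. Once CDC20 is free, the complex has securin and cyclin B degraded, separase opens cohesin, and the central spindle directs cytokinesis. Many of these genes are transcribed together late in the cell cycle through a promoter element named CHR, which is bound by the MuvB complex together with MYBL2 and FOXM1 as activators or, in resting cells, with repressors.

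The 3 DMSO-treated libraries held 11015480 to 11164840 gene counts and the 3 THZ1-treated ones 7876402 to 8314306, so every DMSO-treated library was deeper. A floor of 3 counts equals at most 0.253 CPM (counts scaled to library size with TMM factors, as in all CPM values unless another scaling is named) with DMSO and 0.415 CPM with THZ1, a limit for counting error only, and no listed gene came near it. Of 10 B-cell precursor markers, all 10 were detected, with a summed level of 4290.1 to 4308 CPM with DMSO and 1916 to 1978 CPM with THZ1, on library sizes alone, though CD79A was at 135 to 143 CPM with DMSO and 283 to 304 CPM with THZ1. The 3 T-cell markers stayed at or under 0.889 CPM in sum. The 3 myeloid markers summed to 2.60 to 4.27 CPM with DMSO and 14.5 to 15 CPM with THZ1. Among them CD14 went from 7 to 9 counts per library with DMSO to 58 to 71 with THZ1 and CSF1R from 1 to 2 counts to 37 to 60, whereas LYZ went from 21 to 37 counts to 7 to 17. The 2 stromal markers summed to 3.45 to 4.89 CPM and 14.3 to 14.7 CPM, nearly all of it COL1A1, with COL1A2 at 0 to 2 counts in every library. Mitochondrial genes took 4.32% to 4.37% of the counts with DMSO and 12.6% to 13.6% with THZ1, while the 56 mitosis genes took 0.896% to 0.939% and 0.767% to 0.811%. The part of these shifts in the results below was not tested, apart from the scaling without mitochondrial counts given with them.

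The mitosis genes went both ways with THZ1. At an adjusted p-value below 0.05 (edgeR quasi-likelihood, Benjamini-Hochberg over all 16622 genes), 20 of the 56 genes (35.7%) were higher with THZ1, 30 (53.6%) were lower and 6 were not called. Over all genes tested, 43.5% were higher and 41.1% lower, and 84.5% were called in either direction. The share called was thus near the background, and the split between higher and lower calls was not tested against that of all genes. The median log2 fold change of the list was −0.31, with quartiles of −0.94 and 0.32, beside a median of 0.03 over all genes tested. The range ran from −2.15 for SMC2, a core subunit of condensin, to 2.14 for CDC20, the activator of the anaphase-promoting complex. Past 1.5 on the log2 scale were 2 higher genes, CDC20 and PLK1, and 7 lower genes, where all genes gave 24.6% and 12.9%. The treatments did not overlap for 50 of the 56 genes (89.3%), beside 84.7% of all genes tested (43.4% with THZ1 above DMSO and 41.3% below). In bulk libraries, a changed share of cells in a phase of the cell cycle and a changed amount of RNA of a gene per cell cannot be told apart. By flow cytometry, the paper reports a G2/M arrest of B-ALL cells at a low THZ1 concentration and apoptosis at a high one. The part of either in these values was not tested.

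The split depended on how the libraries were scaled. With library sizes alone 11 genes were higher and 34 lower, with library sizes of nuclear genes, without mitochondrial counts, 17 and 31, and with upper quartile factors 25 and 25. Against TMM, the log2 fold changes of all genes shifted by −0.25, −0.11 and 0.19 in the median under these scalings. Each scaling is relative to the libraries themselves, so none can show a change in total mRNA per cell. Higher, lower, rose and fell are therefore meant relative to the other genes of a library. In the deposited log2 FPKM values, tested with limma, 13 of the genes were higher and 32 lower. Of the 30 genes called lower, 25 kept their call and direction under all 17 alternatives run, and of the 20 called higher, 10 did. Those 10 were CDC20, PLK1, KIF23, CDCA5, CDC25C, ECT2, PRC1, UBE2C, UBE2S and BIRC5. The FPKM settings, which resemble each other, shifted all genes by −0.26 to −0.31 in the median against TMM, whereas upward shifts reached 0.19. The counts of kept calls therefore depend on which alternatives were run, and the higher and lower genes are not compared by them.

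**Figure D1:**
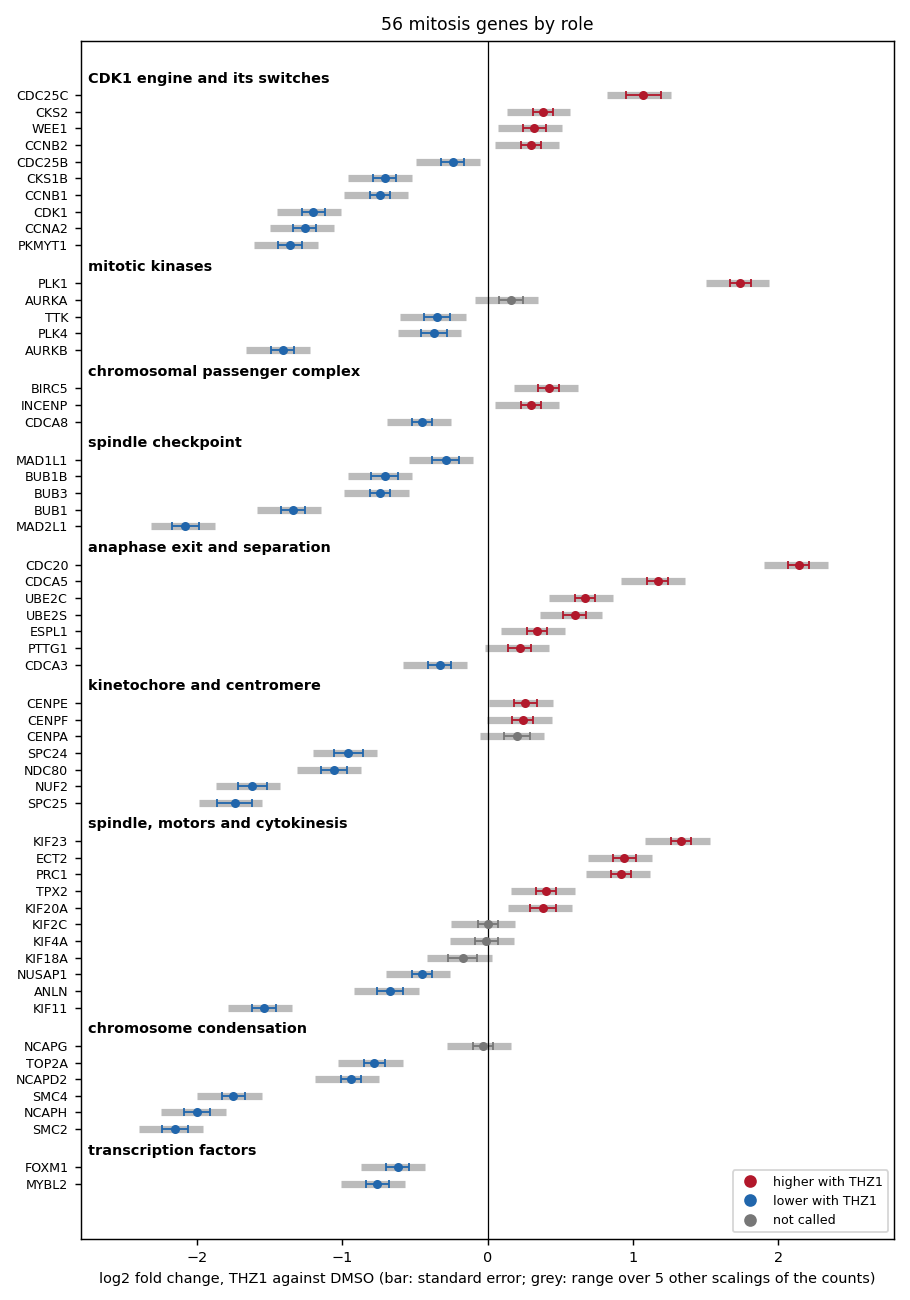
Log2 fold change of each of the 56 mitosis genes with THZ1 against DMSO (x axis), grouped by role (y axis), with the standard error as a bar and the range over 5 other scalings of the counts in grey. Red points were called higher, blue points lower and grey points not called. Condensation and checkpoint genes lie to the left of 0, with NCAPG close to it at −0.03, and CDC20 at 2.14 and PLK1 at 1.74 lie farthest to the right.

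To show the promoters of the genes that moved most, the 3 highest and the 3 lowest genes with exactly 1 RefSeq promoter window are printed (RefSeq, build GRCh38.p14), from 250 bases before the transcription start up to the start. Capitals mark CHR elements (written TTTGAA or as TTCGAA), boxes bound by NF-Y (written CCAAT) and E2F sites (written TTCCCGC, or with the letters TTGGCGC, or with the letters TTCGCGC, or with the letters TTGCCGC), each searched on both strands. The first 3 belong to genes that were higher with THZ1, and the last 3 to genes that were lower.
CDC20 (chr1:43358731-43358980, plus strand): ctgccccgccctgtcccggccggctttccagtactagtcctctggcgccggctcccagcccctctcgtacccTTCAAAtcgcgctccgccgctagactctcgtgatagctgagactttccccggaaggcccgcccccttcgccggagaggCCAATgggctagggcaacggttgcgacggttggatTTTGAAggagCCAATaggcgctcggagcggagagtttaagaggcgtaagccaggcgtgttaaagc
PLK1 (chr16:23678639-23678888, plus strand): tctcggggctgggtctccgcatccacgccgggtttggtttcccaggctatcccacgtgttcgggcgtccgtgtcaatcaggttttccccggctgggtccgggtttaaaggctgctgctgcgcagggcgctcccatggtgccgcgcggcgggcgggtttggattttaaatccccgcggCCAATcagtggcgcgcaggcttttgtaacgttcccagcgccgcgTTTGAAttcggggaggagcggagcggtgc
KIF23 (chr15:69414099-69414348, plus strand): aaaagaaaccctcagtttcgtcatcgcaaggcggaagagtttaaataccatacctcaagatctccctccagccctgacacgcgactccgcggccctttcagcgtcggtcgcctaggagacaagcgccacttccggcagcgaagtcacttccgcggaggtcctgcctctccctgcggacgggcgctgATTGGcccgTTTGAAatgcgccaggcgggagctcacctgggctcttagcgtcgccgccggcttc
MAD2L1 (chr4:120066849-120067098, minus strand): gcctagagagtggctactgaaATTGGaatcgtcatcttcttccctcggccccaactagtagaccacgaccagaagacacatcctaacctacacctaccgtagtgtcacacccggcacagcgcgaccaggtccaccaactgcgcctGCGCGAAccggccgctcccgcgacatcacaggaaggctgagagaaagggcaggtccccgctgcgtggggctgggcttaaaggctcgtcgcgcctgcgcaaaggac
NCAPH (chr2:96335516-96335765, plus strand): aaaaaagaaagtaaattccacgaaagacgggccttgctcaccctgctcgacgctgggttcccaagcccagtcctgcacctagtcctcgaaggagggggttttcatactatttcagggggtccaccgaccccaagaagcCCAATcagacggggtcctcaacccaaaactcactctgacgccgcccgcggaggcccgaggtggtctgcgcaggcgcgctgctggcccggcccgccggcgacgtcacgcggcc
SPC25 (chr2:168890431-168890680, minus strand): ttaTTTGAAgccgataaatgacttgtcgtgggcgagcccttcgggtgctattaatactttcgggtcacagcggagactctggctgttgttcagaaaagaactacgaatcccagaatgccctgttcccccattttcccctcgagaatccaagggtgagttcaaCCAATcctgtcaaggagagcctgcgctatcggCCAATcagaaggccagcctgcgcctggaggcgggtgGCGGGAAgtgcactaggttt

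The printed windows of CDC20, PLK1 and KIF23 each held at least 1 CHR element and 1 CCAAT box and no E2F site. Those of MAD2L1 and SPC25 each held a CCAAT box and an E2F site, SPC25 also a CHR element, and that of NCAPH only a CCAAT box. MAD2L1 has a CHR element too, at position 25 after the start and so outside the printed bases. SPC25 has a further one that begins at position −3 and runs past the start, so it is not marked. Over the full windows, which also take in 50 bases after the start, 47 of the 56 genes had an entry, and AURKA, BIRC5, BUB3, FOXM1, PKMYT1, TPX2, TTK, UBE2C and WEE1 had none. A CHR element was found in 12 of the 16 higher genes with a window (75%) and in 19 of the 26 lower genes (73.1%), beside 15.2% of the 10713 genes tested that had a window. The share was close on both sides of the split. CCAAT boxes were found in 14 of the 16 higher genes (87.5%) and 18 of the 26 lower genes (69.2%), beside 42.4% of all genes tested. E2F sites were found in 3 of the 16 higher genes (18.8%), CDC25C, CDCA5 and ECT2, and in 10 of the 26 lower genes (38.5%), beside 24.2% of all genes tested and 27.5% of all genes called lower. Matches of different motifs could share bases, a gene was counted once over all its windows, no share was tested, and a match of letters is a description that says nothing about binding.

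**Figure D2:**
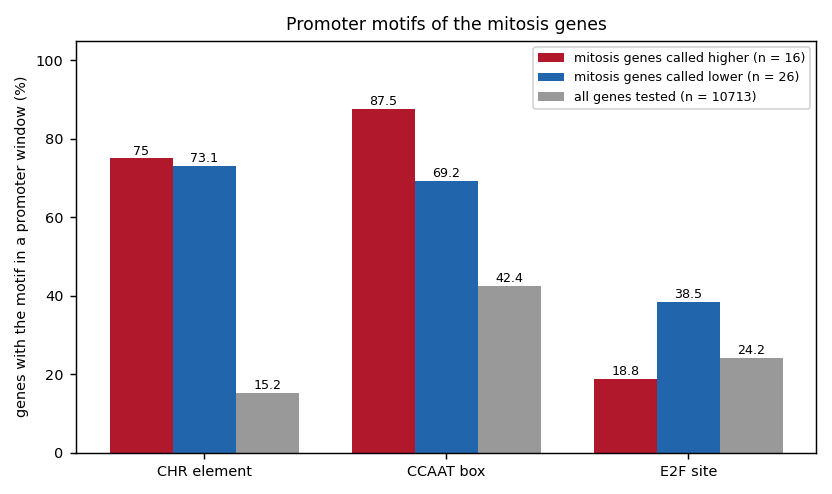
Share of genes (y axis, percent) with a CHR element, a CCAAT box or an E2F site in a promoter window, for the mitosis genes called higher (16 genes), those called lower (26 genes) and all genes tested that had a window (10713 genes). The CHR bars of both sets of mitosis genes, 75% and 73.1%, stand above the 15.2% of all genes, and the E2F bar of the lower genes, 38.5%, is above that of the higher genes, 18.8%.

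Among the 10 genes of the CDK1 engine and its switches, 6 were lower with THZ1 and 4 higher. CDK1 itself, on chromosome 10 from 62538089 to 62554610 (GRCh37, as are all gene positions), had 155, 149.7 and 159 CPM in the DMSO-treated libraries and 73.1, 63.4 and 64.8 CPM in the THZ1-treated libraries. CCNB1, its cyclin B1 partner on chromosome 5 from 68462962 to 68474072, had 160.0, 162 and 176 CPM with DMSO and 96.8, 98.3 and 103 CPM with THZ1. Neither gene overlapped between treatments, and CDK1 fell by more, with log2 fold changes of −1.20 (standard error 0.08) and −0.74 (0.07), at adjusted p-values of 2.3e-15 and 5.4e-11 by edgeR. PKMYT1, a kinase that inhibits CDK1 at membranes, was the lowest gene of this group, with 209, 181 and 215 CPM with DMSO and 77.3, 82.1 and 75.8 CPM with THZ1 (log2 fold change −1.36, edgeR adjusted p 1.3e-16). CCNA2, the cyclin of S and G2 phase, followed at −1.26. CDC25C, a phosphatase that removes the inhibitory phosphates from CDK1, was the highest of this group and, per length, the least abundant of the 56 genes with DMSO. It had 15.2, 12 and 14.5 CPM with DMSO and 28.1, 31.0 and 28.5 CPM with THZ1 (log2 fold change 1.07 ± 0.12 SE, edgeR adjusted p 1.6e-09). Every THZ1-treated library lay above every DMSO-treated library for CDC25C.

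WEE1, the nuclear kinase that inhibits CDK1, had 80.4, 80.1 and 79.9 CPM with DMSO and 96.9, 94.3 and 108 CPM with THZ1, so both inhibitory kinases were called, in opposite directions. Its log2 fold change of 0.32 came down to 0.07 with library sizes alone, where it was not called (adjusted p = 0.4 by edgeR). The CDK adaptor subunits also parted. CKS1B had 113, 117 and 135 CPM with DMSO and 69.3, 75.7 and 77.8 CPM with THZ1 (log2 fold change −0.71), whereas CKS2 had 115, 112 and 121 CPM and 156, 139.9 and 155 CPM (log2 fold change 0.38). The higher call of CKS2 was lost with library sizes alone and in the FPKM values, and the call of CCNB2 (cyclin B2, 0.30) was lost under the same settings. CDC25B (−0.24), a second CDC25 phosphatase, was called lower, but not with RLE or upper quartile factors, with DESeq2, with the filter of 10 counts per library, or without THZ1 replicate 2.

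Of the 5 mitotic kinases, 1 rose, 3 fell and 1 was not called. PLK1, the polo-like kinase of centrosomes, kinetochores and midbody, lies on chromosome 16 from 23688977 to 23701688. It had 158, 147 and 172 CPM with DMSO and 583, 503 and 512 CPM with THZ1, with every THZ1-treated library above every DMSO-treated one. PLK1 rose by 1.74 ± 0.07 SE on the log2 scale (edgeR adjusted p 8.4e-20), and by 1.5 to 1.94 over the other scalings. AURKB, the kinase of the chromosomal passenger complex, on chromosome 17 from 8108051 to 8113918, had 127, 125 and 141 CPM with DMSO and 51.8, 46.4 and 49.2 CPM with THZ1. It was the lowest kinase, at −1.41 ± 0.08 SE on the log2 scale (edgeR adjusted p 1.6e-16). TTK, a checkpoint kinase, and PLK4, which starts centriole duplication, changed less, by −0.35 and −0.37 on the log2 scale, and neither was called with upper quartile factors. AURKA, the spindle pole kinase, had 87.8, 83.5 and 85.8 CPM with DMSO and 99.8, 96.5 and 90.4 CPM with THZ1 (log2 fold change 0.16) with a 95% interval of 0.01 to 0.31 (adjusted p = 0.055 by edgeR). Its libraries did not overlap between treatments, and the value ranged from −0.09 to 0.35 over the other scalings. AURKA was called higher with RLE or upper quartile factors, with DESeq2 and with the filter of 10 counts per library.

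Of the 3 further subunits of the passenger complex, 2 were called higher and 1, like AURKB, lower. BIRC5, which encodes survivin, had 192, 185 and 204 CPM with DMSO and 246, 273 and 261 CPM with THZ1 and rose (log2 fold change 0.42, edgeR adjusted p 1.4e-06). INCENP, the scaffold of the complex, was at 0.30, a call that was lost with library sizes alone and in the FPKM values. CDCA8, which encodes borealin, had 128, 138 and 129 CPM with DMSO and 93.0, 99.8 and 97.5 CPM with THZ1 and fell (log2 fold change −0.45, edgeR adjusted p 1.6e-06).

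All 5 spindle checkpoint genes were called lower, beside 41.1% of all genes tested, from −2.08 for MAD2L1 to −0.29 for MAD1L1. Under every scaling run each value stayed below 0. MAD2L1, which encodes the protein MAD2 that binds CDC20, lies on chromosome 4 from 120976778 to 120988013. It had 118, 106 and 121 CPM with DMSO and 25.2, 25.5 and 30.7 CPM with THZ1 (log2 fold change −2.08 ± 0.09 SE, edgeR adjusted p 2.6e-19). BUB1, a kinase that brings the checkpoint to kinetochores, had 195, 216 and 192 CPM with DMSO and 82.2, 74.3 and 82.0 CPM with THZ1. BUB3, its small binding partner, had 264, 283 and 279.8 CPM with DMSO and 169, 161 and 166 CPM with THZ1. The treatments did not overlap for either, and the log2 fold changes were −1.34 for BUB1, −0.74 for BUB3 and −0.71 for BUB1B, the BUBR1 kinase of the inhibitory complex. MAD1L1, which holds MAD2 at kinetochores, had 89.4, 82.9 and 103 CPM with DMSO and 79.3, 69.6 and 76.1 CPM with THZ1, and its small change was not called with upper quartile factors or with the filter of 10 counts per library.

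Of the 7 genes grouped here under anaphase and chromosome separation, 6 were called higher, beside 43.5% of all genes tested. The group takes in genes that restrain separation, such as CDCA5 and PTTG1, and CDCA3, which is not a separation gene. No role was tested against all genes, and of 16 genes of the anaphase-promoting complex and its regulators, given below, 11 were lower. CDC20, on chromosome 1 from 43824652 to 43828874, had 232, 222 and 264 CPM with DMSO and 1107, 1035 and 1035 CPM with THZ1, the largest rise of the list. On the log2 scale it rose by 2.14 ± 0.07 SE (edgeR adjusted p 2.7e-22), 2.07 to 2.20 in fits without 1 library and 1.90 to 2.34 over the other scalings. CDCA5, which encodes sororin, the protector of sister chromatid cohesion, rose from 186 ± 11.8 to 419 ± 12.2 CPM (SD, n = 3 each), a log2 fold change of 1.17. UBE2C and UBE2S, the ubiquitin-conjugating enzymes of the anaphase-promoting complex, rose from 147 ± 10.9 to 233 ± 16.2 CPM and from 468 ± 60.7 to 709.9 ± 21.5 CPM, or by 0.67 and 0.60 on the log2 scale. Separase (ESPL1) had 148, 158 and 134 CPM with DMSO and 195, 175 and 184 CPM with THZ1. Its inhibitor securin (PTTG1) had 118, 106 and 129 CPM with DMSO and 144, 135 and 134 CPM with THZ1. Both changes were small, at 0.34 and 0.22 on the log2 scale. PTTG1 turned to −0.02 with library sizes alone and in the FPKM values, and its call was lost with no filter, with nuclear library sizes, without DMSO replicate 2 and without THZ1 replicate 1. ESPL1 was not called with library sizes alone or in the FPKM values with a pseudocount of 0.1. CDCA3 had 81.2, 74.2 and 90.5 CPM with DMSO and 62.9, 68.5 and 63.9 CPM with THZ1 and was the 1 gene of the group called lower, at −0.33, though not with upper quartile factors.

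**Figure D3:**
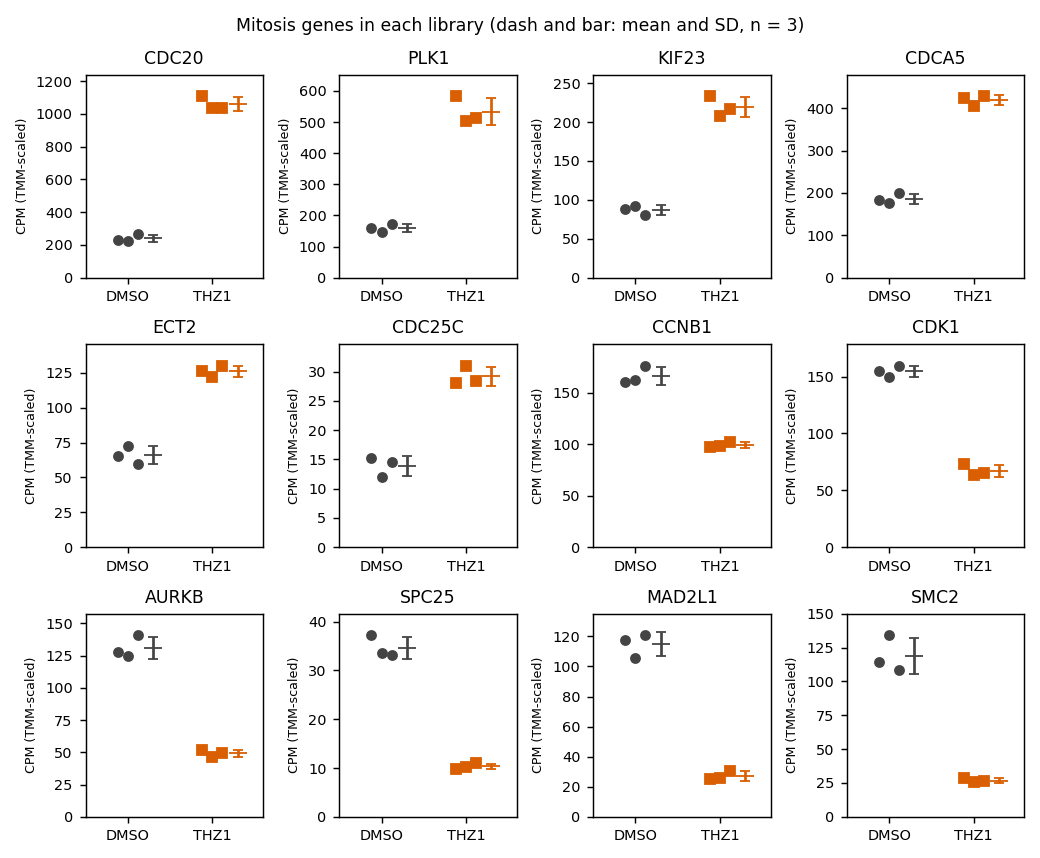
CPM with TMM scaling (y axis, from 0) of 12 mitosis genes in each of the 3 DMSO-treated (grey circles) and 3 THZ1-treated libraries (orange squares), with the mean and SD beside the points. For CDC20, PLK1, KIF23, CDCA5, ECT2 and CDC25C all THZ1-treated libraries lie above all DMSO-treated ones, and for CCNB1, CDK1, AURKB, SPC25, MAD2L1 and SMC2 all lie below.

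The 4 subunits of the NDC80 complex, which ties microtubules to the kinetochore, all fell under every alternative run. SPC25 had 37.2, 33.5 and 33.1 CPM with DMSO and 9.86, 10.2 and 11.0 CPM with THZ1. NUF2 had 75.1, 72.6 and 70.8 CPM with DMSO and 25.4, 19.0 and 26.6 CPM with THZ1. For both, every THZ1-treated library lay below every DMSO-treated one. NDC80 had 64.5, 64.3 and 64.4 CPM with DMSO and 34.7, 28.7 and 29.0 CPM with THZ1, and SPC24 had 62.3, 56.8 and 65.0 CPM with DMSO and 37.1, 30.5 and 27.1 CPM with THZ1. The log2 fold changes were −1.74, −1.62, −1.06 and −0.96 (standard errors 0.12, 0.10, 0.09 and 0.10), with adjusted p-values from 2.7e-14 for SPC25 and 1.8e-15 for NUF2 to 3.7e-10 for SPC24 by edgeR. The outer kinetochore motor CENPE had 91.2, 104 and 83.1 CPM with DMSO and 118, 103 and 113 CPM with THZ1, and the treatments overlapped. CENPE (0.26) and the large kinetochore protein CENPF (0.24) were called higher, but not with library sizes alone, with nuclear library sizes or in the FPKM values, nor CENPE with no filter, and CENPF turned to −0.0048 with library sizes alone. CENPA, the histone H3 variant that marks centromeres, had 37.9, 40.0 and 42.6 CPM with DMSO and 42.1, 50.1 and 45.9 CPM with THZ1, which overlapped, with a log2 fold change of 0.20 and a 95% interval of 0.01 to 0.38 (adjusted p = 0.0541 by edgeR). CENPA was called higher under the 4 settings named for AURKA, without DMSO replicate 3 and without THZ1 replicate 1.

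Of the 11 genes of the spindle, its motors and cytokinesis, 5 were higher, 3 lower and 3 not called. KIF11, the motor that pushes spindle poles apart, on chromosome 10 from 94333862 to 94415152, had 169.7, 191 and 155 CPM with DMSO and 56.9, 58.4 and 61.4 CPM with THZ1 (log2 fold change −1.54 ± 0.08 SE, edgeR adjusted p 2.3e-17). KIF23, a motor of the central spindle, on chromosome 15 from 69706585 to 69740766, had 88.3, 92.0 and 80.5 CPM with DMSO and 233, 207 and 217 CPM with THZ1 (log2 fold change 1.33 ± 0.07 SE, edgeR adjusted p 6.5e-17). PRC1, which bundles the microtubules of the central spindle, had 126, 119 and 118 CPM with DMSO and 249.8, 209.7 and 229.9 CPM with THZ1. ECT2, the exchange factor that activates RhoA at the cleavage plane, rose from 65.8 ± 6.37 to 126 ± 4.06 CPM. KIF23, PRC1 and ECT2 rose by 1.33, 0.92 and 0.94 on the log2 scale and kept their calls under all alternatives run. Of 25 further spindle and cytokinesis genes, given below, 8 were higher and 15 lower, among the lower RACGAP1 at −0.29. Anillin (ANLN), a scaffold of the contractile ring, fell as well (log2 fold change −0.67), as did the spindle protein NUSAP1 (−0.45). TPX2, the activator of AURKA, had 248, 265 and 243 CPM with DMSO and 345, 331 and 324 CPM with THZ1 (log2 fold change 0.40) and was not called in the FPKM values. KIF20A, a further central spindle motor, was at 0.38 and was not called with library sizes alone.

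The other 3 genes of this group, all kinesins, were not called. KIF2C, which takes microtubules apart at centromeres, had 148, 141 and 147 CPM with DMSO and 159.5, 133 and 144 CPM with THZ1. KIF4A, a chromosome-bound motor and partner of PRC1, had 79.8, 88.5 and 83.4 CPM with DMSO and 85.2, 78.2 and 86.6 CPM with THZ1. KIF18A, which limits the swings of chromosomes, had 33.8, 34.5 and 31.7 CPM with DMSO and 28.4, 33.2 and 27.5 CPM with THZ1. The treatments overlapped for all 3, and the 95% intervals of their log2 fold changes were −0.14 to 0.15, −0.16 to 0.14 and −0.37 to 0.04. Their values were 0.00083, −0.01 and −0.17, and KIF18A was called lower with library sizes alone, with nuclear library sizes, with no filter, in the FPKM values, without DMSO replicate 3 and without THZ1 replicate 2. KIF2C and KIF4A were called higher with upper quartile factors and lower with library sizes alone.

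Of the 6 condensation genes, 5 were called lower, beside 41.1% of all genes tested. SMC2, on chromosome 9 from 106856541 to 106903700, had 114, 134 and 109 CPM with DMSO and 28.5, 25.3 and 26.2 CPM with THZ1 (log2 fold change −2.15 ± 0.09 SE, edgeR adjusted p 1.6e-19). SMC4, with which SMC2 forms the condensin core, had 294, 317 and 259.7 CPM with DMSO and 81.1, 88.2 and 90.5 CPM with THZ1 (log2 fold change −1.75). The treatments did not overlap for either. NCAPH, the subunit that closes the ring of condensin I, fell (log2 fold change −2.0), and so did NCAPD2, one of its HEAT-repeat subunits (−0.94). NCAPG, the other HEAT-repeat subunit, had 153, 157 and 142 CPM with DMSO and 152, 145 and 143 CPM with THZ1, which overlapped, with a log2 fold change of −0.03, a 95% interval of −0.17 to 0.10 and an adjusted p of 0.661 by edgeR. NCAPG was called lower with library sizes alone and in the FPKM values and higher with upper quartile factors, yet in each of these it stayed above the other 4 condensin genes. TOP2A, the topoisomerase that untangles sister chromatids, had 585, 648 and 541 CPM with DMSO and 375, 328 and 334 CPM with THZ1 (log2 fold change −0.78).

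Both transcription factors of the list fell. FOXM1 had 116, 118 and 118 CPM with DMSO and 80.6, 66.7 and 81.3 CPM with THZ1 (log2 fold change −0.62, edgeR adjusted p 2.1e-08). MYBL2 had 426, 379 and 441 CPM with DMSO and 241, 222 and 272 CPM with THZ1 (log2 fold change −0.76, edgeR adjusted p 8e-11). The treatments did not overlap for either gene, and the part of either factor in the changes of the other genes was not tested.

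Ratios of partner genes within a library do not depend on the scaling between libraries, and 12 pairs were compared. They are ratios of counts, not corrected for gene length, so only their change between treatments is compared. The ratios did not overlap between treatments for 11 of the 12 pairs. Single genes already did not overlap in 84.7% of all cases tested, and no share was computed for other pairs of genes, so nothing is read from this count. With 3 libraries against 3 the exact two-sided permutation test cannot go below p = 0.1, which these 11 pairs reached (0.109 adjusted over the 12 pairs). CDC20 over MAD2L1, an activator and its inhibitor, moved most of the 12, from log2 ratios of 0.98, 1.07 and 1.13 with DMSO to 5.45, 5.34 and 5.07 with THZ1. In counts this was a mean ratio of 2.09 with DMSO and 39.1 with THZ1, a difference of 4.23 on the log2 scale (standard error 0.12). AURKB over BIRC5 fell from −0.59, −0.57 and −0.54 to −2.25, −2.56 and −2.41, a difference of −1.84 (0.09). CKS2 over CKS1B went from 0.02, −0.07 and −0.15 to 1.17, 0.89 and 1.00, a difference of 1.08. Per length, CKS2 stood above CKS1B with both treatments, at 545 ± 18.6 and 150.2 ± 9.39 FPKM with DMSO and 598 ± 31.8 and 80.5 ± 4.64 FPKM with THZ1.

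CCNB1 over CDK1 went from 0.05, 0.12 and 0.14 with DMSO to 0.40, 0.63 and 0.66 with THZ1. The differences on the log2 scale were 0.46 for CCNB1 over CDK1, 0.57 for NDC80 over NUF2, 0.77 for SPC24 over SPC25, −0.41 for SMC2 over SMC4 and −0.60 for BUB1 over BUB3. For CDC25C over WEE1, which oppose each other on CDK1, the difference was 0.76, for KIF4A over PRC1 −0.93 and for AURKA over TPX2 −0.25. Securin over separase overlapped, with −0.32, −0.57 and −0.05 with DMSO and −0.44, −0.38 and −0.46 with THZ1 (exact permutation p = 0.6), and its difference of −0.11 had a standard error of 0.15. In the deposited FPKM values all 12 differences had the same sign as in the counts. That of AURKA over TPX2 was smaller there, −0.11, and that of PTTG1 over ESPL1 larger, −0.24, while the others ran from 4.14 for CDC20 over MAD2L1 to −1.79 for AURKB over BIRC5.

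**Figure D4:**
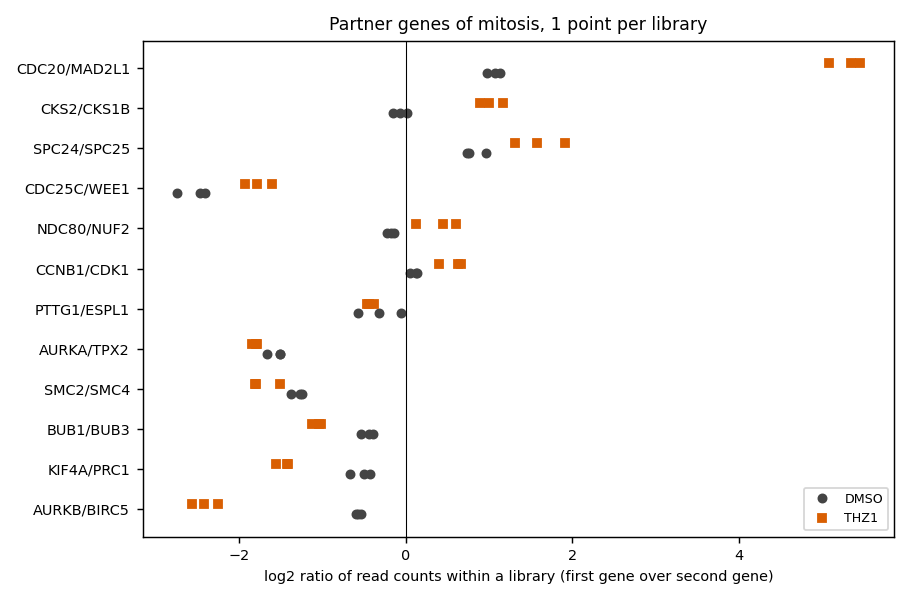
Log2 ratio of the read counts of 2 partner genes within each library (x axis) for 12 pairs (y axis), with 1 point per library for DMSO (grey circles) and THZ1 (orange squares). Only for PTTG1/ESPL1 do the treatments overlap, and CDC20/MAD2L1 moves from about 1 to above 5.

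Levels per transcript length come from the deposited FPKM values, read as log2(FPKM + 1) and taken back to FPKM. With DMSO, CKS2 had the highest level of the 56 genes, 545 ± 18.6 FPKM (SD, n = 3), followed by UBE2S with 492 ± 24.5, MYBL2 with 446 ± 19.3 and CDC20 with 348 ± 2.42 FPKM. CDC25C had the lowest, 12.1 ± 1.52 FPKM. With THZ1, CDC20 led with 1256 ± 42.1 FPKM, ahead of UBE2S with 623 ± 16.3 and CKS2 with 598 ± 31.8 FPKM, while MYBL2 was at 211 ± 20.3 FPKM. The lowest level with THZ1 was that of SMC2, 9.71 ± 0.71 FPKM.

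A wider set of 102 genes of the same processes was examined beside the list, and 24 (23.5%) were higher and 73 (71.6%) lower with THZ1 (median log2 fold change −0.61), beside 43.5% and 41.1% of all genes tested. With library sizes alone the counts were 18 and 76, and with upper quartile factors 26 and 62. Of 34 further kinetochore and centromere genes, 27 were lower and 6 higher. ZWINT, which links the outer kinetochore to the checkpoint, was the lowest, at −2.99 (125 ± 4.78 CPM with DMSO and 15.7 ± 2.12 CPM with THZ1, adjusted p = 9.5e-23 by edgeR). The highest was HASPIN, a histone H3 kinase, at 1.45. Among 16 genes of the anaphase-promoting complex and its regulators 11 were lower and 5 higher, from −2.60 for ANAPC16 to 1.03 for ANAPC11, both subunits.

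Of 25 further spindle and cytokinesis genes, 15 were lower and 8 higher, from −1.59 for the motor KIF2A to 1.47 for TACC3, which binds spindle microtubules. Of 13 further genes, 12 of condensin and cohesin and their regulators and the chromosome surface protein MKI67, 10 were lower and 2 higher, and MKI67 was the 1 not called (log2 fold change 0.14, edgeR adjusted p 0.0962), with the cohesin core subunit SMC1A lowest at −1.94 and the cohesin subunit RAD21 highest at 1.04 (296 ± 19.9 CPM with DMSO and 607 ± 39.7 CPM with THZ1). Of 14 further regulators of mitotic entry and exit, 10 were lower and 3 higher, from −1.45 for the kinase PBK to 2.29 for LIN37, a subunit of MuvB. LIN37 was low with DMSO, at 1.28 ± 0.4 CPM, and had 6.27 ± 0.402 CPM with THZ1. It passed the filter on low counts through the THZ1-treated libraries, so no p-value is given for it.

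In the annotation, 27 of the 56 genes overlap a gene on the opposite strand and 14 overlap one on the same strand, and since the strand setting of the counting is not named, their reads may be partly shared or lost. Such partners include ERN2 for PLK1, FAM53C for CDC25C, RPL28 for UBE2S, KIF23-AS1 for KIF23, PRC1-AS1 for PRC1, NOSTRIN for SPC25, RGS5 for NUF2, TRIM59 and IFT80 for SMC4, PAQR4 for PKMYT1, OIP5 for NUSAP1, CDC23 for KIF20A, RHNO1 for FOXM1, MRPL51 for NCAPD2 and LCORL for NCAPG. CDC20, MAD2L1, CDK1, CDC25B, CENPE, AURKA, AURKB, BIRC5, BUB1, BUB3, CDCA5, CDCA8, ESPL1, PTTG1, INCENP, NCAPH, SMC2, TPX2, TTK, UBE2C and MYBL2 have no overlapping gene.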

How the data were processed

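RNA-SEQ libraries of NALM6 cells (3 with DMSO, 3 with 500 nM of THZ1, 24 h) were analysed. Raw read counts of each gene were deposited by the authors, who mapped filtered reads to GRCh37 with STAR and counted with htseq-count (cutadapt, STAR, HTSeq and RSEM per the submitters' processing notes). The annotation and strand setting are not given in the sources used here. A second deposited table holds RSEM FPKM on a log2 scale for 16730 genes, read as log2(FPKM + 1). Sorted values differed there by a median of 0.0015 to 0.0017 between libraries of one treatment and 0.087 to 0.0902 between treatments, and the normalization between libraries is not given in the sources used here. Its fold changes, p-values and FDR values are the authors' own and were not used.

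Counts were filtered with filterByExpr (minimum count 10, total 15), scaled by TMM and fitted with edgeR (quasi-likelihood F test, two-sided, Benjamini-Hochberg adjustment). Standard errors were derived from the F statistic and the fold change, and 95% intervals from 1.96 standard errors. Replicates differed by more than sampling noise (chi-square per gene 1.81 to 9.35) and were kept apart. Symbols and positions are from GENCODE 44 mapped to GRCh37, promoters from RefSeq on GRCh38.p14. The members and all lists were chosen with earlier results of these data known. Given per library were the extremes of each role, the partner genes and the genes not called. Of the wider lists the highest and lowest called genes were named, by fold change and in part by mean and SD. The 12 genes plotted, MKI67, RACGAP1, the markers named singly and others given by mean were chosen after their values were seen. On counts simulated from these libraries over 16622 genes, edgeR called 178 of 193 changed genes (92.2%) and 7 of 15987 unchanged ones. Only 200 genes were changed there, each by at least 1 on the log2 scale, whereas 84.5% of genes were called in these data. The simulation therefore says nothing about the scaling between libraries when most genes change, or about smaller changes. Tried as alternatives were upper quartile and RLE factors, unscaled library sizes (library sizes alone), DESeq2, other filters, a replicate block, each library left out, limma on FPKM (pseudocount 1 or 0.1, mean FPKM of at least 1) and, added after seeing the data, nuclear library sizes. R 4.3.3, edgeR 4.0.16, limma 3.58.1, DESeq2 1.42.0, Python 3.11.15, scipy 1.17.1 and pandas 2.3.3 were used. The other assays of the study were not analysed here. A further marker list and an overlapping gene are not reported here.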

Additional observations from a re-analysis of the deposited data

How the results depend on the processing

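At the same threshold, the count of mitosis genes called higher went from 20 with TMM to 11 with library sizes alone, and in the FPKM values to 13 (pseudocount 1), 12 (pseudocount 0.1) and 13 (pseudocount 1, mean FPKM of at least 1). The count called lower stayed between 25 and 34 under all scalings, filters and tables. With a minimum size of 1 on the log2 scale 5 were higher and 13 lower, and with 1.5, 2 and 7, by the construction of the threshold. The median log2 fold change of −0.31 kept its sign and was −0.24 with RLE factors and with DESeq2, −0.12 with upper quartile factors, −0.56 with library sizes alone, −0.42 with nuclear library sizes, −0.4 with no filter and −0.18 with the filter of 10 counts per library. In the FPKM values it was −0.39 (pseudocount 1, also with the FPKM minimum) and −0.41 (pseudocount 0.1). Fits without 1 library gave 19 to 21 higher and 30 to 31 lower genes, a median of −0.34 to −0.25, and the value farthest from −0.31 came without DMSO replicate 3.

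PTTG1 turned to −0.02 with library sizes alone and under each of the 3 FPKM settings, and CENPF to −0.0048 with library sizes alone. Among the genes not called, KIF4A turned to 0.18 and NCAPG to 0.16 with upper quartile factors, and KIF2C to −0.25 with library sizes alone, each then called. The cause of these moves was not tested beyond the shift that each scaling gives to all genes. With the replicate block 20 genes were higher and 30 lower with a median of −0.31, and it changed no call of the list. Replicate numbers carried no shared deviation, since libraries of the same number had correlations of −0.004, 0.000969 and 0.0206 and not every library correlated best with its own number. Of the 12 partner ratios, 11 did not overlap between treatments in the counts, 10 did not in the FPKM values, and 11 to 12 did not without 1 library. The 3 libraries per treatment limit every exact test to p = 0.1.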

Other observations

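Gene length along the genome was set beside the calls, with no test. The 20 higher genes spanned a median of 19854 bases and the 30 lower genes 32526.5 bases, and among the protein-coding genes tested the 4333 higher genes spanned a median of 16923 bases and the 5675 lower genes 44168 bases. Across the 56 genes the Spearman correlation of span with log2 fold change was −0.168, beside −0.343 across 11929 protein-coding genes tested, and genes of 1 library are not independent, so these values are descriptions. Both long and short genes were found on either side: CENPE spans 93097 bases and was called higher, whereas CKS1B spans 4599 bases and was called lower. MAD1L1, the longest of the list with 417450 bases, had a log2 fold change of −0.29.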
